A study of Mus musculus with 5 samples.

Results

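The 10 genes of blood cell identity described here, 9 transcription factors and 1 receptor gene, were measured in single circulating cells of mouse embryos. The members were Gata1, Klf1, Gfi1b, Gfi1, Myb, Runx1, Lmo2, Ikzf1 and Spi1, with Kit, the receptor of stem cell factor. They were taken by name as 10 of the 24411 gene rows of the deposited table of molecule counts (UMIs), with spike-in rows left out. Of the 10 members, 9 had at least 1 UMI in the kept cells, and Gfi1 had none.

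GATA1 and KLF1 are the transcription factors on which red cell formation depends, and they bind GATA and CACCC motifs at the genes of haem synthesis, globins and the red cell membrane. GFI1B is a repressor needed for red cells and platelets, and its relative GFI1 acts in stem cells and neutrophils. MYB, RUNX1, LMO2 and IKZF1 (Ikaros) belong to blood progenitors, SPI1 (PU.1) directs myeloid and B cells and antagonises GATA1, and KIT is carried by blood progenitors but also by germ cells, melanoblasts and some endothelial cells.

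All samples were wild-type C57BL/6 embryos, with 3 replicate batches at embryonic day 10 (E10) and 2 at embryonic day 9.5 (E9.5). Blood was drawn from the heart. Cells that carried none of the surface proteins TER119 (red cells), CD41 (platelets), CD43 and CD45 (white cells) were sorted and picked by hand. The series title names the non-haematopoietic circulating cells as its subject, so the blood cells described here had passed a gate that is meant to remove them. Nothing says that the batches came from separate litters, and p-values therefore measure at most the spread between these batches, which may be technical. With so few batches, that spread was in part shared across genes in every fit. In the fits against non-blood-type cells it was shared wholly, as said there. Each batch held 1 stage, and cells of a batch are not replicates.

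Of 480 wells, 294 held at least 1000 genes and 30000 UMIs, numbering 87, 72 and 63 in E10 replicates 1, 2 and 3 and 26 and 46 in E9.5 replicates 1 and 2. A kept cell held a median of 308923.5 UMIs. Cells were divided without use of the members. Erythroid-type cells had at least 400 CPM (counts per gene, scaled to the same total in every cell) of Alas2, the first enzyme of haem synthesis in red cells. Progenitor-type cells had less Alas2 and at least 4 of 15 genes listed as shared by blood cells, such as Vav1, Coro1a and Nfe2, at 20 CPM. Non-blood-type cells had under 50 CPM of Alas2 and at most 2 of those genes. These rules gave 46 erythroid-type cells, 15 progenitor-type cells and 177 non-blood-type cells, and left 56 cells in no class. Per batch, in the order of E10 replicates 1, 2 and 3 and E9.5 replicates 1 and 2, erythroid-type cells numbered 1, 23, 11, 1 and 10, progenitor-type cells 0, 8, 3, 0 and 4, and non-blood-type cells 80, 1, 48, 23 and 25. No cell lay between 343 and 616 CPM of Alas2. Of the 15 genes listed as shared, 2 had a median of at least 20 CPM in erythroid-type cells and 6 in progenitor-type cells. Vav1 had a UMI in 4 of 46 erythroid-type cells, and Cd53 had none in any class. Cells of the 3 classes had median depths of 371308.5 UMIs (erythroid-type), 522336 UMIs (progenitor-type) and 293698 UMIs (non-blood-type), and the part of depth in the results was not tested.

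The batches differed in haemoglobin RNA carried by every cell. Each of the 72 kept cells of E10 replicate 2 had at least 9783 CPM of Hbb-y, an embryonic beta-globin gene, whereas the median over E10 replicate 1 was 149 CPM. Every kept cell of the other batches had Hbb-y too. Their minimum was 52.2 and 2343 CPM in E10 replicates 1 and 3, and 1328 and 4165 CPM in E9.5 replicates 1 and 2. The cells of E10 replicate 2 also had at least 31.9 CPM of Alas2 each. Without that batch, the log2 fold changes of erythroid-type over progenitor-type cells described here were -3.29 for Lmo2, -5.75 for Kit, -6.56 for Myb and -3.88 for Runx1, and all 4 passed the test. Ptprc, the gene of CD45, was listed at 0 in all wells, as were 6741 of the 24411 genes.

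The stretches before the start sites of 5 members are shown, because Gata1, Klf1 and Gfi1b were on together in the same cells, and Kit and Myb marked the difference between the progenitor-type and the erythroid-type cells. RefSeq promoter entries (GRCm38.p6) were found for 8 of the 10 members, and Lmo2 and Spi1 had none. Kit had another entry, at chr5:75574737-75574915, which is not shown. The sequences begin 250 bases before the RefSeq start and end at that start, or earlier where an annotated exon of the gene (GENCODE) begins. They lie at chrX:7967911-7968160 (Gata1, minus strand, inside the annotated span of the gene), chr8:84901732-84901927 (Klf1, plus strand), chr2:28621983-28622232 (Gfi1b, minus strand), chr10:21160985-21161234 (Myb, minus strand) and chr5:75574741-75574915 (Kit, plus strand). Capitals mark core letters bound by 3 families of factors, on either strand. GATA factors bind GATAA, which reads TTATC on the other strand. KLF factors bind CACCC, which reads GGGTG there. RUNX factors bind TGTGGT, which reads ACCACA there.
Gata1: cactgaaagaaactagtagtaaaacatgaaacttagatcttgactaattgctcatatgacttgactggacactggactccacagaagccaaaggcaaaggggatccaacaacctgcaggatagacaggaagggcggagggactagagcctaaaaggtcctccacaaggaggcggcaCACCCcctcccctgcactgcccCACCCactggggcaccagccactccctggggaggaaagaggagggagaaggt
Klf1: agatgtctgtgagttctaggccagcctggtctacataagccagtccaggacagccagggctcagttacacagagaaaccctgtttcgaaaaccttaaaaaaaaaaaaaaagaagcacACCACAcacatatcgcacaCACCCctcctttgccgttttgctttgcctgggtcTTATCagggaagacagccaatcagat
Gfi1b: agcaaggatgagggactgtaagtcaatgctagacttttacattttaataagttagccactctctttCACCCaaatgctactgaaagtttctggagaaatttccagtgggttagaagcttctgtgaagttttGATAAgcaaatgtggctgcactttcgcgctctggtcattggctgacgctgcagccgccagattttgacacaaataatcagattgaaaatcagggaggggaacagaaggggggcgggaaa
Myb: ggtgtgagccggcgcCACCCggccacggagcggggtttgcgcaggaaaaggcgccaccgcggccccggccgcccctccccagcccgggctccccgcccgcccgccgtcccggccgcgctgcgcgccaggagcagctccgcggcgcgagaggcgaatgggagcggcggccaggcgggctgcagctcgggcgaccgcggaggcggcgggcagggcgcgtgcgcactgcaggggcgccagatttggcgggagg
Kit: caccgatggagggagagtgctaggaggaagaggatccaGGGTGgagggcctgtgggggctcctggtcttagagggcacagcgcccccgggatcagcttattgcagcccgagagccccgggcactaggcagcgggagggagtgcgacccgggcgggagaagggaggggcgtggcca
The Klf1 stretch held all 3 motifs, with the GATA letters starting 80 bases before the start. The Gfi1b stretch held GATAA and CACCC once each, and the Gata1 stretch held CACCC at 2 places. The Myb and Kit stretches held the CACCC letters once each and neither of the other motifs. Over 32817 promoters, 22.6% held GATAA, 52.0% CACCC and 14.0% TGTGGT in 250 bases, on either strand. In the 196 bases shown for Klf1 these shares were 19.1%, 43.7% and 11.4%, and CACCC stood in 39.8% of promoters over the 175 bases shown for Kit. These matches describe letters only.

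The red cell factors Gata1, Klf1 and Gfi1b were on (at least 2 UMIs and 20 CPM) together in 41 of 46 erythroid-type cells (89.1%, 95% exact interval 76.4% to 96.4%), 15 of 15 progenitor-type cells (78.2% to 100%) and 0 of 177 non-blood-type cells, which allows a share of up to 1.69%. Intervals and limits here cover counting error only. The 0 of 177 holds for cells under 50 CPM of Alas2, as the class rule requires. That limit left 1 non-blood-type cell in E10 replicate 2 and put 40 of its cells in no class. Some of those 40 had Gata1, Klf1 and Gfi1b on together, as described below. Kit and Myb were on together in 0 of 46 erythroid-type cells, which allows up to 6.52%, in 13 of 15 progenitor-type cells (86.7%, 59.5% to 98.3%) and in 1 of 177 non-blood-type cells. By batch, Kit and Myb were on together in 7 of 8, 3 of 3 and 3 of 4 progenitor-type cells of E10 replicates 2 and 3 and E9.5 replicate 2, and Gata1, Klf1 and Gfi1b in 23 of 23, 10 of 11 and 7 of 10 erythroid-type cells. The 13 progenitor-type cells with Kit and Myb on all had Gata1, Klf1 and Gfi1b on as well.

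**Figure D1:**
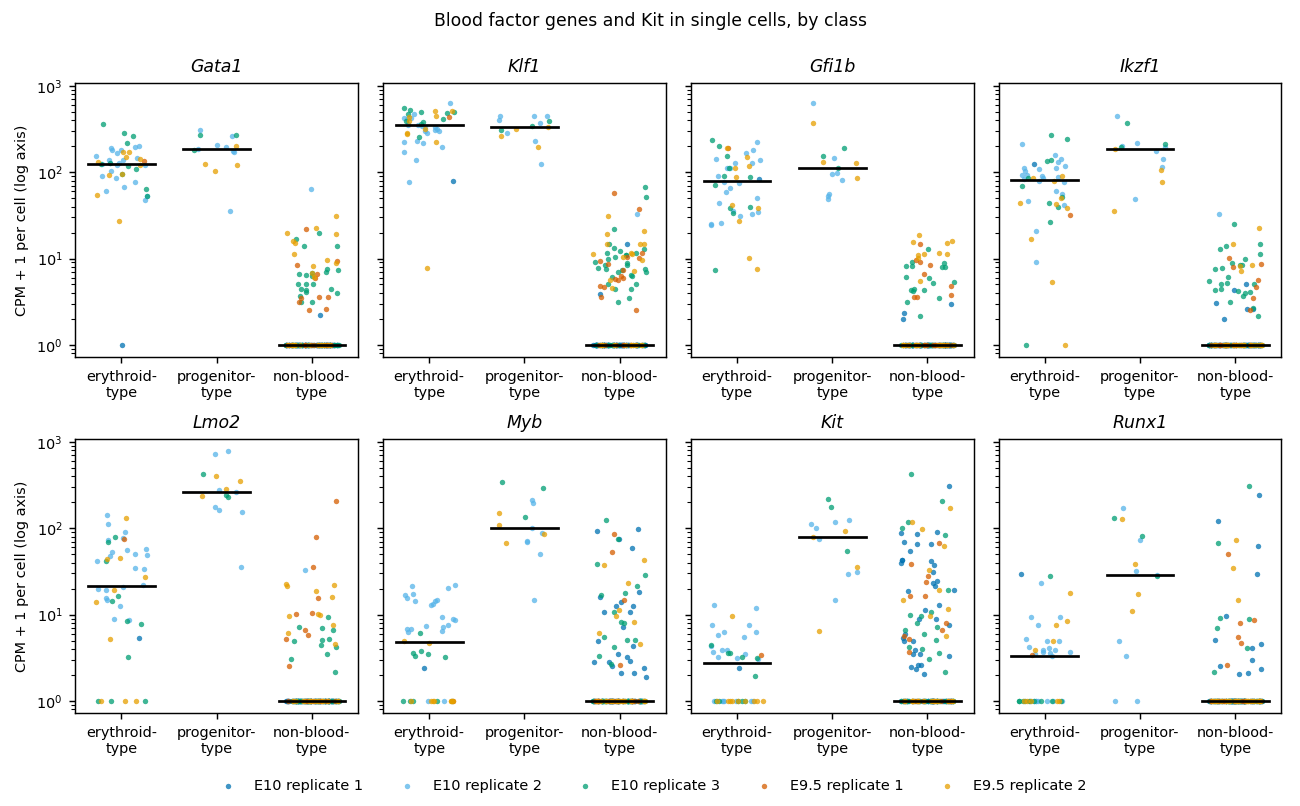
Level of 8 genes per cell, as CPM with 1 added on a log axis, in erythroid-type, progenitor-type and non-blood-type cells. Each point is a cell, coloured by batch, and black lines are medians over cells. Gata1, Klf1, Gfi1b and Ikzf1 overlap between the blood classes, while Lmo2, Myb and Kit are higher in progenitor-type cells.

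Gata1 (chrX:7959260-7978071, minus strand) had a median of 125 CPM in erythroid-type cells, from 0 to 359 CPM, and 186 CPM in progenitor-type cells, from 34.3 to 306 CPM. All 15 progenitor-type cells lay within the erythroid-type range. Per batch, summed Gata1 was 125, 167 and 110 CPM in erythroid-type cells of E10 replicates 2 and 3 and E9.5 replicate 2, against 211, 222 and 151 CPM in progenitor-type cells. Each of these sums was lower in the erythroid-type cells of its batch than in the progenitor-type cells, before libraries were scaled to each other. In the fit with scaled libraries (TMM) the difference was near 0, with a log2 fold change of -0.03 (SE 0.21, adjusted p = 0.953, edgeR quasi-likelihood test with Benjamini-Hochberg adjustment over 8903 genes, batch as a block).

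Klf1 (chr8:84901928-84905291, plus strand) had a median of 348 CPM in erythroid-type cells, from 6.82 to 640 CPM, and 330 CPM in progenitor-type cells, from 123 to 451 CPM. Summed Klf1 was 313, 438 and 387 CPM in erythroid-type cells of E10 replicates 2 and 3 and E9.5 replicate 2, against 364, 359 and 289 CPM in progenitor-type cells. The erythroid-type sum was higher in E10 replicate 3 and E9.5 replicate 2 and lower in E10 replicate 2 before scaling, and the log2 fold change was 0.67 (SE 0.19, adjusted p = 0.0734, edgeR). It was past the 0.05 threshold with DESeq2 (adjusted p = 0.0188), without a filter on low counts (0.0183) and without E10 replicate 2 (0.0377), each time with erythroid-type cells higher. Gfi1b (chr2:28609450-28621982, minus strand) had a median of 78.8 CPM in erythroid-type cells and 111 CPM in progenitor-type cells (log2 fold change -0.56, SE 0.25, adjusted p = 0.270, edgeR). Before scaling, its sums were 83.8, 85.3 and 75.9 CPM in erythroid-type cells of these batches. In progenitor-type cells they were 165, 140 and 217 CPM. The erythroid-type sum was the lower one in each batch, but the test was not passed. How many of all genes do the same was not counted. The highest Gfi1b level of all cells, 632 CPM, was that of a progenitor-type cell of E10 replicate 2. Ikzf1 (chr11:11685003-11772926, plus strand) had a median of 80.4 CPM in erythroid-type cells, from 0 to 270 CPM, and 184 CPM in progenitor-type cells, from 34.8 to 448 CPM. Its sums were 93.7, 112 and 38.9 CPM in erythroid-type cells, against 197, 251 and 100.1 CPM in progenitor-type cells. Each sum was lower in the erythroid-type cells of its batch, although the ranges over batches overlapped, and the log2 fold change was -0.69 (SE 0.23, adjusted p = 0.131, edgeR).

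Lmo2 (chr2:103957986-103981878, plus strand), the bridging protein of the GATA1 and TAL1 complex, had summed levels of 44.3, 24.7 and 22.7 CPM in erythroid-type cells of E10 replicates 2 and 3 and E9.5 replicate 2, against 340, 338 and 335 CPM in progenitor-type cells. The progenitor-type level varied little between batches (338 ± 2.45 CPM, SD, n = 3). Lmo2 was lower in erythroid-type cells with a log2 fold change of -3.01 (SE 0.26, adjusted p = 0.000104, edgeR). It was on in 23 of 46 erythroid-type cells and 15 of 15 progenitor-type cells.

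Myb (chr10:21124935-21160984, minus strand), a factor of progenitor growth, had 10.8, 1.93 and 0.771 CPM in the summed erythroid-type cells of these batches, against 116, 278 and 103 CPM in progenitor-type cells. Of the 15 progenitor-type cells, 14 lay above the highest erythroid-type cell (21.2 CPM). Myb was lower in erythroid-type cells, with a log2 fold change of -4.96 (SE 0.69, adjusted p = 0.00194, edgeR). The erythroid-type value of E10 replicate 2, the batch with the highest minimum of Hbb-y per cell, was the highest of the 3. Without that batch the log2 fold change was -6.56.

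Runx1 (chr16:92601466-92826149, minus strand), which acts where blood cells first form, had a median of 2.32 CPM in erythroid-type cells and 27.9 CPM in progenitor-type cells. Summed Runx1 was 4.06, 2.10 and 3.85 CPM in erythroid-type cells, against 45, 92.5 and 39.1 CPM in progenitor-type cells of the same batches. It was lower in erythroid-type cells with a log2 fold change of -3.56 (SE 0.62, adjusted p = 0.00739, edgeR). Only 9 of the 15 progenitor-type cells had it on, and the adjusted p was 0.0572 when progenitor-type cells needed 6 of the 15 shared blood genes.

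Kit (chr5:75574916-75656722, plus strand) had 3.47, 1.23 and 1.16 CPM in the summed erythroid-type cells, against 79.2, 151 and 48.3 CPM in the progenitor-type cells of E10 replicates 2 and 3 and E9.5 replicate 2. No erythroid-type cell had Kit on, and the highest had 11.9 CPM. Kit was lower in erythroid-type cells with a log2 fold change of -5.02 (SE 0.60, adjusted p = 0.000691, edgeR). Of the 15 progenitor-type cells 14 exceeded all erythroid-type cells, and the exception was a cell of E9.5 replicate 2 with 5.50 CPM of Kit.

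The filter on low counts left 8 of the 10 members in this comparison. The fit left 2 residual degrees of freedom, and the prior shared across genes added 8.76. Its SEs and p-values therefore rest mostly on the shared spread. The members called lower in erythroid-type cells were Myb, Runx1, Lmo2 and Kit, and 0 were called higher. Over all 8903 genes tested, 1.86% were called lower, 3.39% higher and 5.26% in either direction, 468 genes in all. That total became 161 without E9.5 replicate 2 and 745 without E10 replicate 3, while Myb, Runx1, Lmo2 and Kit were called in each fit that left out 1 of the 3 batches. Alas2 and the 15 shared genes were measured in the same cells and can vary with the members, and no p-value here comes from classes defined on other data. Of the 15, 9 were tested, and 6 were called lower and 1 higher in erythroid-type cells. Ptpn7 was among the 5 genes most like Myb, and Fermt3 among those most like Runx1 and Kit, and both belong to the 15. The calls of Myb, Runx1, Lmo2 and Kit are therefore not independent of the class rule.

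**Figure D2:**
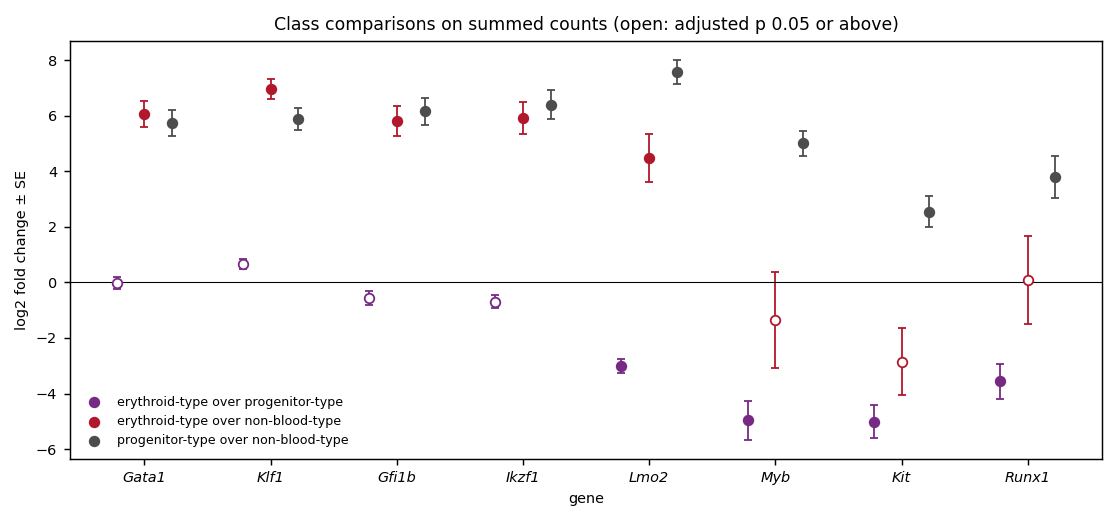
Log2 fold change with its standard error for 8 genes in 3 comparisons of summed counts per batch and class. Filled points have an adjusted p below 0.05. Lmo2, Myb, Kit and Runx1 lie below 0 for erythroid-type over progenitor-type cells, with filled points, and Gata1 (-0.03), Klf1 (0.67), Gfi1b (-0.56) and Ikzf1 (-0.69) have open points there and filled points above 0 against non-blood-type cells.

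Gfi1 (chr5:107716657-107726036, minus strand) and Spi1 (chr2:91082390-91115756, plus strand), which act in stem and myeloid cells, were hardly detected. Gfi1 had 0 UMIs in all 480 wells, which allows up to 0.0286 CPM over the kept cells. Since 6741 genes were at 0 throughout, it can only be said that Gfi1 is listed at 0. Spi1 had 8 UMIs in the erythroid-type cells, 36 in the progenitor-type cells and 18 in the non-blood-type cells. The only cell with Spi1 on was a progenitor-type cell of E10 replicate 3 at 32.5 CPM with 18 UMIs, which also had 8 other members on. Of 12 myeloid and mast cell markers, 9 had no UMI in progenitor-type cells, among them Csf1r and Mpo, and the summed level of the 12 reached at most 30.2 CPM per cell.

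**Figure D3:**
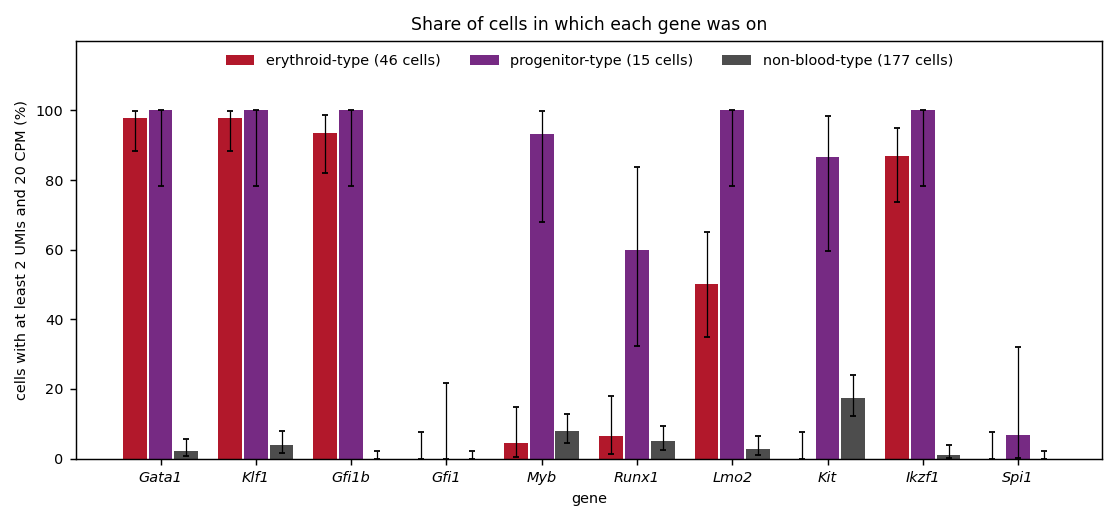
Share of erythroid-type, progenitor-type and non-blood-type cells with at least 2 UMIs and 20 CPM of each of the 10 genes, with 95% exact binomial intervals as error bars. Kit is on in 0 of 46 erythroid-type, 13 of 15 progenitor-type and 31 of 177 non-blood-type cells, and Gfi1 in none of the 294 cells.

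Progenitor-type cells were close to each other in the combination of factors. A progenitor-type cell had a median of 8 members on, from 5 to 9, against a median of 4.5 in erythroid-type cells, from 2 to 6, and 0 in non-blood-type cells, from 0 to 3. Gata1, Klf1, Gfi1b, Myb, Runx1, Lmo2, Kit and Ikzf1 were all on in 9 of the 15 progenitor-type cells, and 4 others lacked only Runx1 of these 8. A cell of E9.5 replicate 2 lacked Runx1 and Kit. The last cell, in well 16 of E10 replicate 2, had only Gata1, Klf1, Gfi1b, Lmo2 and Ikzf1 on, the combination most frequent in erythroid-type cells. Its Alas2 level of 343 CPM was the highest below the limit, its Myb and Kit levels were both 13.7 CPM, and it had 4 shared blood genes, the minimum for its class. Among erythroid-type cells, 19 of 46 had that combination and 13 had it without Lmo2.

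Within the 15 progenitor-type cells, levels were compared as log2 of CPM with 10 added. Gata1 went with Klf1 (r = 0.65), Ikzf1 (r = 0.65) and Myb (r = 0.65), and Myb went with Kit (r = 0.63) and, with the opposite sign, with Alas2 (r = -0.65). The cell in well 16 of E10 replicate 2 was the lowest of the 15 in Gata1 (34.3 CPM), Klf1 (123 CPM) and Myb (13.7 CPM). It was also the highest in Alas2 (343 CPM) and had the fewest UMIs (145750). These correlations can rest on that cell, and they were not computed without it. Alas2 in these cells also followed the batch. It was 97.6 to 343 CPM in the 8 cells of E10 replicate 2, 7.31 to 10.8 CPM in the 3 of E10 replicate 3 and 19.2 to 33.2 CPM in the 4 of E9.5 replicate 2. The 3 progenitor-type cells of E10 replicate 3 had the highest median Myb level, 289 CPM, against 78.5 CPM in E10 replicate 2 and 96.4 CPM in E9.5 replicate 2.

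**Figure D4:**
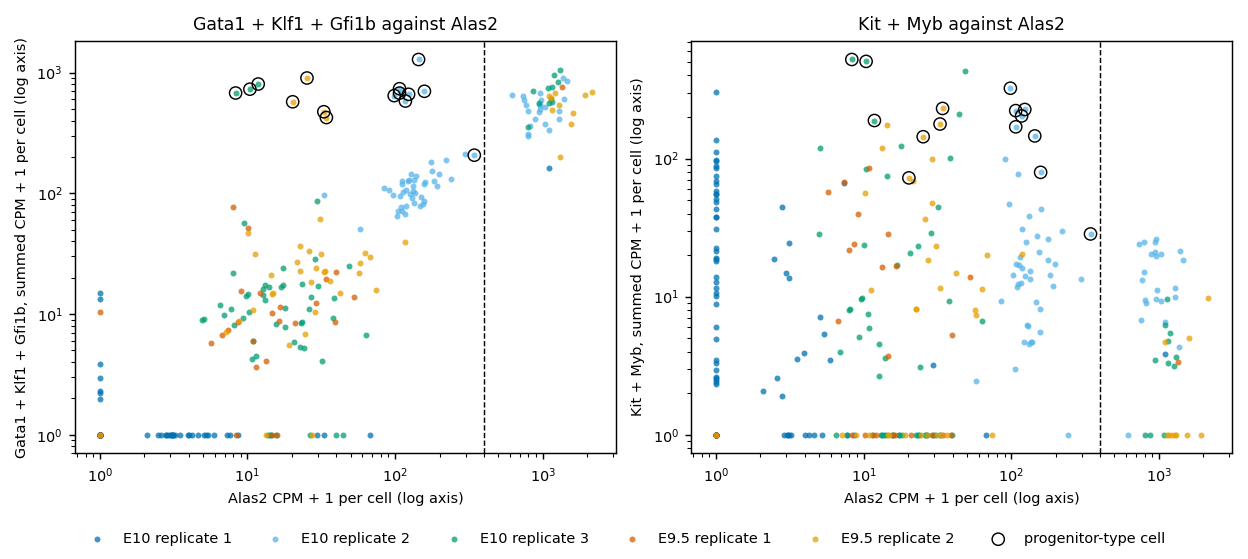
Summed Gata1, Klf1 and Gfi1b (left) and summed Kit and Myb (right) against Alas2, all as CPM with 1 added on log axes, for 294 cells coloured by batch. The dashed line is the limit of 400 CPM, and rings mark the 15 progenitor-type cells. The left sum is high on both sides of the line, and the highest values of the right sum lie left of it. The 40 cells of E10 replicate 2 in no class form a band around 130 CPM of Alas2.

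A single erythroid-type cell came from E10 replicate 1, the batch with the least globin RNA. It had 696027 UMIs, 1106 CPM of Alas2, 79.0 CPM of Klf1, 81.9 CPM of Gfi1b and 125 CPM of Ikzf1, but 0 UMIs of Gata1. All 45 other erythroid-type cells had Gata1 on. The 80 non-blood-type cells of that batch held 1 UMI of Gata1 in all. The erythroid-type cell of E9.5 replicate 1 had 133 CPM of Gata1 and 431 CPM of Klf1.

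Of 18 known targets of GATA1 and KLF1, listed with earlier results of these data known, 16 were tested in erythroid-type over progenitor-type cells. Of these, 9 were called higher and 0 lower, where 3.39% of all genes tested were called higher and 1.86% lower. The median log2 fold change was 2.16 over the list and 0.03 over all genes tested. The classes were divided by Alas2, a gene of haem synthesis, so red cell genes that vary with Alas2 differ between them by the rule. The calls on this list are therefore not independent of the division. Slc4a1, the anion exchanger band 3 of the red cell membrane, averaged 886 ± 96.2 TMM-scaled CPM in erythroid-type cells and 35.2 ± 46.9 CPM in progenitor-type cells (SD, n = 3 batches each, log2 fold change 5.39, SE 0.67, adjusted p = 0.000957, edgeR). Hemgn, a nuclear protein of red cell precursors, averaged 814 ± 49.3 TMM-scaled CPM in erythroid-type cells and 45.2 ± 35.6 in progenitor-type cells (log2 fold change 4.39, SE 0.36, adjusted p = 6.91e-05, edgeR). Trim10 rose as well, by 4.62 on the log2 scale.

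Of 18 partner factors, 13 were tested, and 1 was called higher and 1 lower, where 3.39% of all genes tested were called higher and 1.86% lower. Tal1, the partner of LMO2, averaged 199 ± 46.3 TMM-scaled CPM in erythroid-type cells and 88.4 ± 25.4 CPM in progenitor-type cells (log2 fold change 1.18, SE 0.22, adjusted p = 0.0104, edgeR). Bcl11a, a repressor that silences embryonic and fetal globin genes, averaged 8.11 ± 5.47 TMM-scaled CPM in erythroid-type cells and 181 ± 58.0 CPM in progenitor-type cells (log2 fold change -4.56, SE 0.52, adjusted p = 0.000504, edgeR). Of 15 genes of Kit signalling, 13 were tested and 2 were called lower, beside 1.86% of all genes, the kinase gene Lyn (-4.15, SE 0.70) and the phosphatase gene Ptpn6 (-4.31, SE 0.93), both as log2 fold changes. All 6 corepressor genes of the GFI1 family, such as Kdm1a and Rcor1, were tested and 0 were called; over all genes 1640 had an unadjusted p below 0.05. Of the 9 megakaryocyte markers, 4 had no UMI in progenitor-type cells, and their summed level there ranged from 1.83 to 224 CPM, against 0 to 162 CPM in erythroid-type cells.

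Both blood classes were then set against non-blood-type cells, which could be done in E10 replicate 3 and E9.5 replicate 2 only. In erythroid-type over non-blood-type cells, Gata1 (log2 fold change 6.06, SE 0.46), Klf1 (6.96, SE 0.36), Gfi1b (5.80, SE 0.55), Ikzf1 (5.91, SE 0.58) and Lmo2 (4.47, SE 0.87) were called higher, 5 of 8 members tested. Myb at -1.35 (SE 1.72, adjusted p = 0.583, edgeR) and Runx1 at 0.09 (SE 1.59, adjusted p = 0.976, edgeR) did not pass the test. Kit was at 1.73 and 1.65 TMM-scaled CPM in erythroid-type cells of the 2 batches, against 7.69 and 21.4 CPM in non-blood-type cells, and missed the threshold (log2 fold change -2.85, SE 1.21, adjusted p = 0.0542, edgeR). Over all 11091 genes 33.2% were called, 16.1% higher and 17% lower.

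In progenitor-type over non-blood-type cells, 9 members were tested and 8 were called higher. The log2 fold changes were 7.58 for Lmo2 (SE 0.44), 6.40 for Ikzf1 (SE 0.52), 6.15 for Gfi1b (SE 0.50), 5.87 for Klf1 (SE 0.39), 5.74 for Gata1 (SE 0.48), 5.0 for Myb (SE 0.46), 3.80 for Runx1 (SE 0.75) and 2.54 for Kit (SE 0.56). Spi1 did not pass (5.68, SE 2.92, adjusted p = 0.140, edgeR; 0.0309 with DESeq2). Over all 10489 genes 26.7% were called, 11.8% higher and 14.9% lower. With 3 shared blood genes in place of 4, which brings in E10 replicate 1 with 5 cells, 2 genes were called, and of the members only Klf1 was among them (adjusted p = 0.0353, edgeR). Each of these 2 fits left 1 residual degree of freedom, and leaving out a batch left none. The prior degrees of freedom were infinite in both. Their SEs and p-values therefore rest on a spread shared across genes, not on the spread of each gene between the batches.

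Non-blood-type cells carried few of the factors. None of the 10 was on in 118 of 177 cells (66.7%, 95% exact interval 59.2% to 73.6%). Kit alone was on in 25 cells, Myb alone in 11 and Runx1 alone in 7. Kit was on in 31 of 177 cells, 17 of 80 in E10 replicate 1, 0 of 1 in E10 replicate 2, 5 of 48 in E10 replicate 3, 4 of 23 in E9.5 replicate 1 and 5 of 25 in E9.5 replicate 2. The highest Kit level of all 294 cells, 429 CPM from 36 UMIs, was in a non-blood-type cell of E10 replicate 3 with 5 mesenchymal and 4 neural or neural crest markers at 20 CPM. Myb was on in 14 cells, to 123 CPM, and Runx1 in 9 cells, to 307 CPM. Gata1, Klf1, Gfi1b and Ikzf1 were on in 4, 7, 0 and 2 non-blood-type cells and did not exceed 66.3 CPM. After each cell was thinned to 30000 UMIs, Kit had a UMI in 6.52% of erythroid-type cells, 66.7% of progenitor-type cells and 16.9% of non-blood-type cells.

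Member UMIs in non-blood-type cells were set against Alas2 UMIs of the same cells. Alas2 also defined the classes, so a ratio to it is not independent of them. The intervals cover counting error of UMIs pooled over cells, and their overlap is not a test. In E10 replicate 3 these cells held 16.3 Gata1 UMIs per 100 Alas2 UMIs (95% interval 10.9 to 23.6), against 22.7 in its erythroid-type and progenitor-type cells summed (21.4 to 24.1). Ikzf1 stood at 18.7 (12.9 to 26.6) against 18.7 (17.5 to 19.9), and Gfi1b at 10.8 (6.64 to 16.9) against 12.5 (11.6 to 13.5). For Kit the ratio was 69.5 (55.6 to 86.5) in non-blood-type cells against 5.14 (4.58 to 5.76) in the blood classes. Myb stood at 41.9 (32.1 to 54.2) against 9.43 (8.65 to 10.3), and Runx1 at 35 (26.3 to 46) against 3.28 (2.84 to 3.77). Klf1 stood at 40.4 (30.9 to 52.5) against 52.2 (50 to 54.4), and Lmo2 at 5.91 (3.0 to 10.6) against 13.5 (12.6 to 14.5). The intervals overlapped for Gata1, Klf1, Gfi1b and Ikzf1. They lay apart for Kit, Myb and Runx1, which were higher in the non-blood-type cells, and for Lmo2, which was lower there. The ratio of the blood classes depends on their mix. In this batch the 11 erythroid-type cells held 641 Ikzf1 and 6204 Alas2 UMIs, and the 3 progenitor-type cells held 521 and 18. Ratios of E10 replicate 1 and E9.5 replicate 1, with 1 erythroid-type cell each, are not given. In E9.5 replicate 2 the ratio for Kit was 137 (99 to 189.8) in non-blood-type cells against 2.31 (1.84 to 2.86) in the blood classes. Myb, Runx1 and Gata1 were also apart and higher in the non-blood-type cells of that batch, Gata1 at 32.4 (19.0 to 53.0) against 14.5 (13.2 to 15.9), and the intervals of Klf1, Gfi1b, Ikzf1 and Lmo2 overlapped.

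The 31 non-blood-type cells with Kit on did not share a marker set. At least 3 mesenchymal markers stood at 20 CPM in 23 of them, at least 3 neural or neural crest markers in 12, at least 3 germ and pluripotent cell markers in 7, at least 3 endothelial markers in 5 and at least 3 melanoblast markers in 1, and a cell can count in several lists. Over all 177 non-blood-type cells, 7 of the 9 mesenchymal markers had a median of at least 20 CPM. Whether cells with Kit off differ in mesenchymal, neural or melanoblast markers was not tested. Seen from the lists, Kit was on in 5 of 9 cells with at least 3 endothelial markers, against 26 of 168 other cells, and in 7 of 20 cells with at least 3 germ and pluripotent cell markers, all of E10 replicate 1, against 24 of 157 others. Kitl, the gene of the ligand of KIT, had a UMI in 17 of 46 erythroid-type cells and 107 of 177 non-blood-type cells, and it was called lower in erythroid-type than in non-blood-type cells (log2 fold change -4.37, SE 1.53, adjusted p = 0.0169, edgeR).

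Lmo2 was on in 5 of 177 non-blood-type cells. It was on in 3 of the 5 cells of E9.5 replicate 1 with at least 3 endothelial markers and in 0 of its 18 other non-blood-type cells. The highest levels, 205 and 78.9 CPM, were those of cells with 9 and 10 of the 12 endothelial markers at 20 CPM. In the 3 such cells of E10 replicate 1 Lmo2 had no UMI. The other cells with Lmo2 on were 2 of E9.5 replicate 2, both with under 3 endothelial markers.

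The 56 cells in no class lay mostly in E10 replicate 2, which held 40 of them. These 40 cells had a median of 130 CPM of Alas2 and 20844 CPM of Hbb-y. Gata1 had a median of 32.1 CPM there, from 10.2 to 98.6 CPM, and Klf1 a median of 51.6 CPM, from 24.0 to 86.3 CPM. Gata1, Klf1 and Gfi1b were on together in 18 of the 40 cells (45%, 29.3% to 61.5%), and Kit and Myb together in 1. Over all 56 cells, the 9 mesenchymal markers had a median sum of 577 CPM. It was 88.6 CPM in erythroid-type, 68.7 CPM in progenitor-type and 1561 CPM in non-blood-type cells. The 15 shared blood genes had a median sum of 49.7 CPM in the 56 cells, against 283, 521 and 23.2 CPM in these classes. What kind of cells the 40 are was not tested.

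Per 100 Alas2 UMIs, these 40 cells held 23.5 Gata1 UMIs (20.9 to 26.4), against 21.1 (20.1 to 22.2) in the 31 erythroid-type and progenitor-type cells of the batch. Klf1 stood at 38.5 (34.9 to 42.3) against 45.4 (43.8 to 47.2), Lmo2 at 9.94 (8.36 to 11.8) against 19.4 (18.4 to 20.4), and Kit at 7.98 (6.58 to 9.6) against 3.88 (3.48 to 4.32). Ikzf1 stood at 12.03 (10.3 to 14.0) against 17.6 (16.7 to 18.6), Gfi1b at 18.5 (16.2 to 21.0) against 15.2 (14.4 to 16.1), and Runx1 at 3.73 (2.81 to 4.86) against 2.40 (2.09 to 2.75). The intervals overlapped for Gata1, and for Myb at 5.69 (4.53 to 7.06) against 6.2 (5.68 to 6.76). Relative to Alas2, Klf1, Lmo2 and Ikzf1 were lower in the 40 cells than in the blood cells of the batch, and Kit, Runx1 and Gfi1b were higher, Gfi1b by intervals that nearly touch. The ratio among blood cells depended on class: in the 23 erythroid-type cells alone it was 0.342 (0.229 to 0.492) for Kit and 12.4 (11.6 to 13.2) for Gata1. These ratios too rest on Alas2, which defined the classes, and their intervals cover counting error of pooled UMIs only. The part of free RNA in these levels was not tested.

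**Figure D5:**
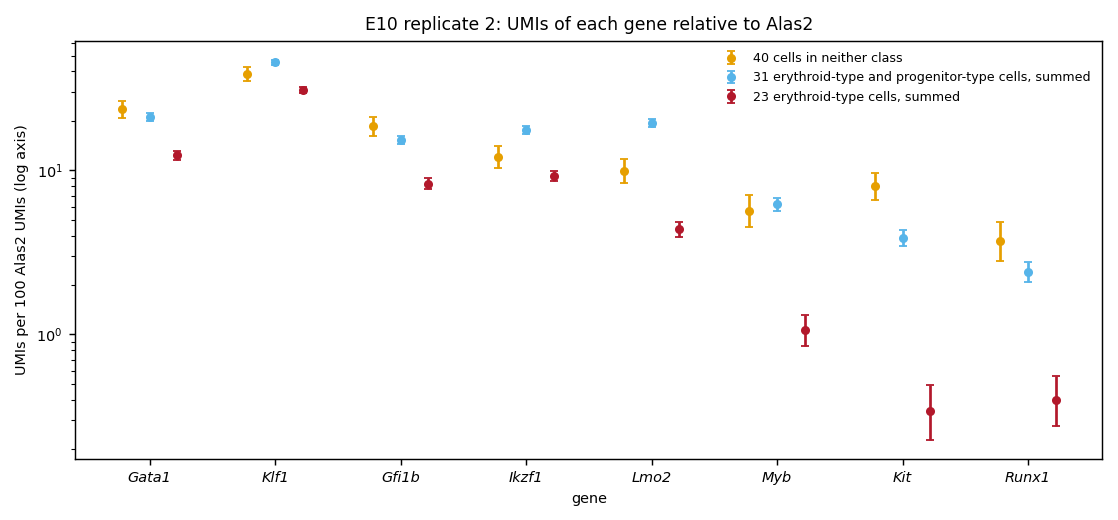
UMIs of 8 genes per 100 Alas2 UMIs in E10 replicate 2, on a log axis, for the 40 cells in neither class, the 31 erythroid-type and progenitor-type cells summed, and the 23 erythroid-type cells alone, with 95% intervals from counting error. Kit stands at 7.98 in the 40 cells and 3.88 in the 31 blood cells, and at 0.342 in the erythroid-type cells alone, while Gata1 is at 23.5, 21.1 and 12.4.

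Stage came last, over all kept cells of a batch. Summed Gata1 was 0.0194, 104 and 68.9 TMM-scaled CPM in E10 replicates 1, 2 and 3, against 9.32 and 77.0 CPM in E9.5 replicates 1 and 2. The stages overlapped in Gata1, as they did in Klf1, Gfi1b, Myb, Runx1, Lmo2, Kit, Ikzf1 and Spi1. The mix of classes differed between batches, with 1 erythroid-type cell in E10 replicate 1 and 23 in E10 replicate 2, and was not adjusted for. Of 9 members tested 0 were called, and 0% of all 14103 genes were called by edgeR, with 1119 at an unadjusted p below 0.05 and 86 called by DESeq2. The smallest adjusted p of a member was 0.835, for Ikzf1 (log2 fold change 1.21, SE 1.45, edgeR), whose fold change ranged from 0.28 to 4.11 with 1 batch left out.

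The share of non-blood-type cells with a UMI of any member, after thinning to 30000 UMIs, was 27.5% in E10 replicate 1 (22 of 80), 100% in E10 replicate 2 (1 of 1), 60.4% in E10 replicate 3 (29 of 48), 60.9% in E9.5 replicate 1 (14 of 23) and 72% in E9.5 replicate 2 (18 of 25). E10 averaged 62.6% ± 36.3 (SD, n = 3) and E9.5 66.4% ± 7.87 (SD, n = 2), a difference of -3.80 percentage points (exact permutation test of the 5 batches, two-sided, p = 0.8). With 10 splits that test cannot give a p below 0.1. The difference was -22.5 percentage points without E10 replicate 2, whose share rests on 1 cell. Its direction turned without E10 replicate 1 (13.8) and without E9.5 replicate 2 (1.77). The share was lowest in the batch with the least globin RNA.

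The genes closest to each member over the 294 cells were found by Pearson correlation on the scale log2(CPM + 10). Genes seen in at least 10% of cells were ranked, 11903 in all. Gata1 was closest to Klf1 (r = 0.92), then Ermap, Car2, Rhag and Smim1, genes of red cells. Within batches the correlation of Gata1 and Klf1 was -0.02, 0.83 and 0.93 in E10 replicates 1, 2 and 3 and 0.76 and 0.80 in E9.5 replicates 1 and 2. Gfi1b was closest to Klf1 (r = 0.88) and Ikzf1 to Ermap (r = 0.87). Lmo2 was closest to Ikzf1 (r = 0.76), and Myb to Abcb4 (r = 0.67). For Runx1 (Ptprcap, r = 0.46) and Kit (Tnfaip2, r = 0.46) the closest gene was far less alike. These values carry no test, since cells share their batch, their depth and the division into classes.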

How the data were processed

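Single cells were picked by hand after the sort, and a modified STRT-seq protocol, which counts transcript ends by molecular identifiers, was used per the labels' protocols. The table holds UMI counts per gene and well as the authors deposited them. CASAVA 1.8, TopHat2 2.0.12, HTSeq and mm10 are named in the submitters' processing notes. Column prefixes were matched to samples by their batch number. Spike-in rows (95) were removed, CPM was computed over the genes, and wells under 1000 genes or 30000 UMIs were left out. No doublet caller was run on hand-picked wells. Of 480 wells, 23 were most like the same well number of another batch among that batch's wells, at 1.35% to 4.66% of its UMIs. All 23 were outside these limits, and 0 wells with UMIs had counts identical to another well.

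Counts were summed per batch and class, with at least 3 cells per sum, and tested with edgeR 4.0.16 (quasi-likelihood, TMM, filterByExpr, Benjamini-Hochberg threshold 0.05) in R 4.3.3, with batch as a block within class comparisons. Both class sums of a block come from the same batch, which is where the pairing comes from. The stage was tested over 5 batch sums without a block, with 3 residual and 4.12 prior degrees of freedom. DESeq2 1.42.0 was an alternative. The scripts were tested on simulated counts. Intervals are exact (Clopper-Pearson, 95%), and a count of 0 allows 3 counts. Kept cells held 31294 to 1407021 UMIs.

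Named were all members, up to 3 called genes of each list with the largest change, and the 5 genes most like each member; values of fewer are given for brevity. The members and lists were chosen with earlier results of these data known. Alternatives were other filters, class limits, scalings and batches left out.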

Additional observations from a re-analysis of the deposited data

Results flagged for a closer look

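Signals of the members were also found in wells outside the limits on genes and UMIs, which no comparison uses. These wells held 112 member UMIs in E10 replicate 2 (24 wells, of which 20 were most like the same well number of another batch). They held 33 in E10 replicate 3 (33 wells) and 9 in E9.5 replicate 1 (5 wells). Such wells held 0 member UMIs in E10 replicate 1 (9 wells) and E9.5 replicate 2 (4 wells). There are no control wells, and the number of UMIs exceeded the 3 counts that a count of 0 allows in each of the 3 batches named first.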

How the results depend on the processing

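For erythroid-type over progenitor-type cells, 468 genes were called, against 935 with DESeq2, 834 without a filter on low counts, 277 without the replicate block and 708 with 6 shared blood genes, and 161 to 745 when 1 batch was left out. For progenitor-type over non-blood-type cells 2 genes were called with 3 shared blood genes, and for erythroid-type over non-blood-type cells 2227 with a minimum of 1 cell per sum. For the stage, DESeq2 called 86 genes. The causes were not tested. Of the members, Gata1 in erythroid-type over progenitor-type cells was at 0.018 with 3 shared blood genes and at -0.11 to 0.10 with 1 batch left out. Runx1 in erythroid-type over non-blood-type cells was at -0.029 when the minimum depth of a cell was raised. With that minimum the stage values were -0.075 for Klf1 and -0.028 for Kit. With 1 batch left out, the stage log2 fold changes ranged from -0.44 to 2.62 for Gata1, -0.75 to 2.11 for Klf1, -1.25 to 1.57 for Gfi1b, -0.33 to 2.47 for Myb, -0.33 to 1.75 for Runx1, -1.37 to 1.40 for Lmo2, -0.38 to 0.88 for Kit, 0.28 to 4.11 for Ikzf1 and -1.44 to 0.96 for Spi1.

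The difference in the share of non-blood-type cells with a member UMI ranged from -22.5 to 13.8 percentage points with 1 batch left out. Gata1, Klf1 and Gfi1b were on together in 25 erythroid-type cells at 50 CPM, and in 15 non-blood-type cells at 1 UMI or more and 1 after thinning. Kit and Myb were on together in 20 erythroid-type cells at 1 UMI or more and 1 after thinning, and in 27, 0 and 3 non-blood-type cells at 1 UMI or more, at 50 CPM and after thinning. Leaving out a batch gave no value for the comparisons with non-blood-type cells, since no residual degrees of freedom were left, nor did 6 shared blood genes for progenitor-type over non-blood-type cells, which left under 2 batches. Few cells per class and depth limit what is said of Runx1 and Spi1.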
